A study of Homo sapiens with 6 samples.

Results

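The genes described here are 10 members of the Krüppel-like factor (KLF) family, KLF2, KLF3, KLF4, KLF5, KLF6, KLF9, KLF10, KLF11, KLF13 and KLF16. They were chosen by name from the 58051 genes of the count table, with earlier results of these data known. All 10 were in the table under a single Ensembl identifier each, and all 10 passed the filter on low values that left 16974 genes for testing. The RNA came from DLD-1, an established line of human colorectal cancer cells. Both alleles of TPR, the gene of a nuclear basket protein, carry an auxin-inducible degron (AID) with the NeonGreen fluorescent protein in these cells, and the ligase TIR1 that auxin recruits to the degron is expressed from the RCC1 locus. All 6 cultures were of this AID-NeonGreen-TPR genotype and received Leptomycin B, an inhibitor of the export receptor CRM1, at 200 nM for 3 h. The LMB group (3 libraries) received nothing more, and the LMB+auxin group (3 libraries) also received 1 mM auxin for the last 2 h of it. No culture without Leptomycin B, and no cell line without the degron, was analysed here, so loss of TPR and the auxin compound itself cannot be told apart in this contrast. Auxin acts on the TPR protein, whose level was not analysed here.

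KLF proteins bind GC-rich and CACCC sequences of promoters through zinc fingers near their carboxyl end, and share this binding domain with the Sp factors. Their amino-terminal parts differ and recruit either coactivators or repressors. KLF2, KLF4, KLF5 and KLF6 act mainly through activating domains, KLF3 represses through the corepressor CtBP, and KLF9, KLF10, KLF11, KLF13 and KLF16 bind the corepressor SIN3A. In the intestine, KLF5 is known from the dividing cells of the crypt and KLF4 from the differentiated cells nearer the lumen. Many KLF mRNAs are induced fast and decay fast, like those of the immediate-early genes.

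Of the 10 genes, KLF6 differed most between the groups and was at higher RNA abundance with auxin, by 1.41-fold. KLF5, the most abundant of the 10, was at lower abundance with auxin, at 0.816 of its LMB level. These were the only genes of the 10 whose libraries did not overlap between groups. The other 8 lay within 0.15 of no change on the log2 scale. Neither KLF6 nor KLF5 passed the test when libraries were compared without regard to the replicate number. When the replicate number was kept as a block, both had an adjusted p under 0.05 by edgeR, and of the pair KLF6 also reached the required fold change of 1.3. By DESeq2 with the same block KLF5 passed the adjusted p and KLF6 did not.

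The bases before the transcription start of KLF6 and KLF5 are shown because the results turn on these genes. They are reference sequence from RefSeq (build GRCh38.p14), 250 bases each, 5′ to 3′ on the strand of the gene. Capitals mark the GC box, GGGCGG or its reverse complement CCGCCC, and the CACCC box, CACCC or its reverse complement GGGTG, the letters that KLF and Sp proteins are known to bind. The KLF6 window is chr10:3785210-3785459 on the minus strand. Part of it lies within the gene span given below (3775996 to 3785281), whose source is GENCODE and not RefSeq. KLF5 has one start with the window chr13:73054726-73054975 and another, within the gene, with the window chr13:73058755-73059004, both on the plus strand.
KLF6: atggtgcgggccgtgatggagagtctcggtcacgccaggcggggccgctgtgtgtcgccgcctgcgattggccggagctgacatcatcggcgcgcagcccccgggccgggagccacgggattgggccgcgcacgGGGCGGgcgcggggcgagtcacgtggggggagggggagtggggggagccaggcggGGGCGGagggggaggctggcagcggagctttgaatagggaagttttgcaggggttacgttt
KLF5 upstream start: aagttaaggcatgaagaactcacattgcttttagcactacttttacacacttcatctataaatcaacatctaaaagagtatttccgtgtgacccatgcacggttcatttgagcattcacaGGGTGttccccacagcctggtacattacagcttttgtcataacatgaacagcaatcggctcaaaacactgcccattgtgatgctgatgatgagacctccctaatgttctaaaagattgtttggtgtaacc
KLF5 downstream start: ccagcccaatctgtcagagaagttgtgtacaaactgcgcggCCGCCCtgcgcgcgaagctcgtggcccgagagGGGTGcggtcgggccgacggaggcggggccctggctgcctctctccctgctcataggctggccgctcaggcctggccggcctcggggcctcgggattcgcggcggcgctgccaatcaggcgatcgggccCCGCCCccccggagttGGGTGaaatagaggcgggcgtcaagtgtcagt
The KLF6 window held 2 GC boxes and 0 CACCC boxes at a GC content of 72.4%. The upstream KLF5 window held 0 GC boxes and 1 CACCC box at 40.8%, and the downstream one held 2 of each at 70.8%. Promoter windows were found for 8 of the 10 genes, in 10 windows, and not for KLF3 and KLF10. A GC box lay in at least 1 window of 7 of these 8 genes (8 of 10 windows), against 42.6% of all 35116 promoter windows of the same length. A CACCC box lay in 3 of the 8 genes (4 of 10 windows), against 54.7% of all windows. Both strands were searched, matches of one motif could overlap those of the other, and a match describes letters only and shows no binding.

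Total counts were 28261903 to 35992425 per library. Of 9 markers of colon epithelium, 8 were tested, and their levels summed to 7091 to 7213 CPM in the LMB libraries, and to 7043 to 7588 CPM where auxin was added. CPM is a count scaled to library size, here with TMM factors. Most of these sums came from KRT8 (3257 to 3652 CPM) and KRT18 (2372 to 2584 CPM). The markers KRT20 (160 to 195 CPM), CDX2 (132 to 155 CPM) and VIL1 (18.1 to 20.6 CPM) were far lower. The marker CDX1 had no count in 5 of 6 libraries and LGR5 was at 0.673 to 1.35 CPM. None of the 4 leukocyte or 4 fibroblast markers passed the filter, with sums of at most 1.01 and 1.20 CPM, and of the 3 endothelial markers only VWF did, with sums of at most 5.66 CPM.

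KLF6 (ENSG00000067082, on chromosome 10 from 3775996 to 3785281, minus strand, GRCh38, with 4 exons) encodes an activator known for growth control in epithelia. It was at 22.2, 34.0 and 30.1 CPM in LMB replicates 1, 2 and 3 and at 37.9, 49.7 and 34.5 CPM in LMB+auxin replicates 1, 2 and 3. Every LMB+auxin library was above every LMB library, although LMB replicate 2 and LMB+auxin replicate 3 nearly met. Its mean level was 28.8 ± 6.03 CPM without auxin and 40.7 ± 8.0 CPM with it (SD, n = 3 each). This is a log2 fold change of 0.50 (standard error 0.17, 95% interval 0.11 to 0.89). The edgeR quasi-likelihood test gave an adjusted p of 0.954, over all 16974 genes. The difference was 0.77, 0.55 and 0.20 on the log2 scale in the replicate pairs 1, 2 and 3, so all pairs moved the same way but by unequal amounts. With the replicate block KLF6 rose by 0.50 with a standard error of 0.07 (edgeR adjusted p 4.9e-07). The 95% interval of that fit, 0.36 to 0.63, is for the mean difference and need not hold each pair. Its standard error was small beside pair differences from 0.20 to 0.77 and is not to be read as their spread. DESeq2 with the same block did not call KLF6 (adjusted p 0.15, log2 fold change 0.51).

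KLF5 (ENSG00000102554, on chromosome 13 from 73054976 to 73077541, plus strand, with 4 exons) encodes an activator of proliferation genes. It was at 229.6, 272.1 and 239.9 CPM in LMB replicates 1, 2 and 3 and at 185.2, 217.2 and 202.6 CPM in LMB+auxin replicates 1, 2 and 3. The highest library with auxin was below the lowest without it. Its mean level was 247.2 ± 22.2 CPM without auxin and 201.7 ± 16.1 CPM with it (SD, n = 3 each). This is a log2 fold change of -0.29 (standard error 0.09, 95% interval -0.49 to -0.10), for which the edgeR adjusted p was 0.954. The pair differences were -0.31, -0.32 and -0.24 and so were closer to each other than those of KLF6. The block fit gave KLF5 a log2 fold change of -0.29 (standard error 0.04), with an adjusted p of 1.2e-06 by edgeR and 1.9e-06 by DESeq2. The change stayed below the 1.3-fold limit of 0.379 on the log2 scale in both fits, so KLF5 was not called.

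**Figure D1:**
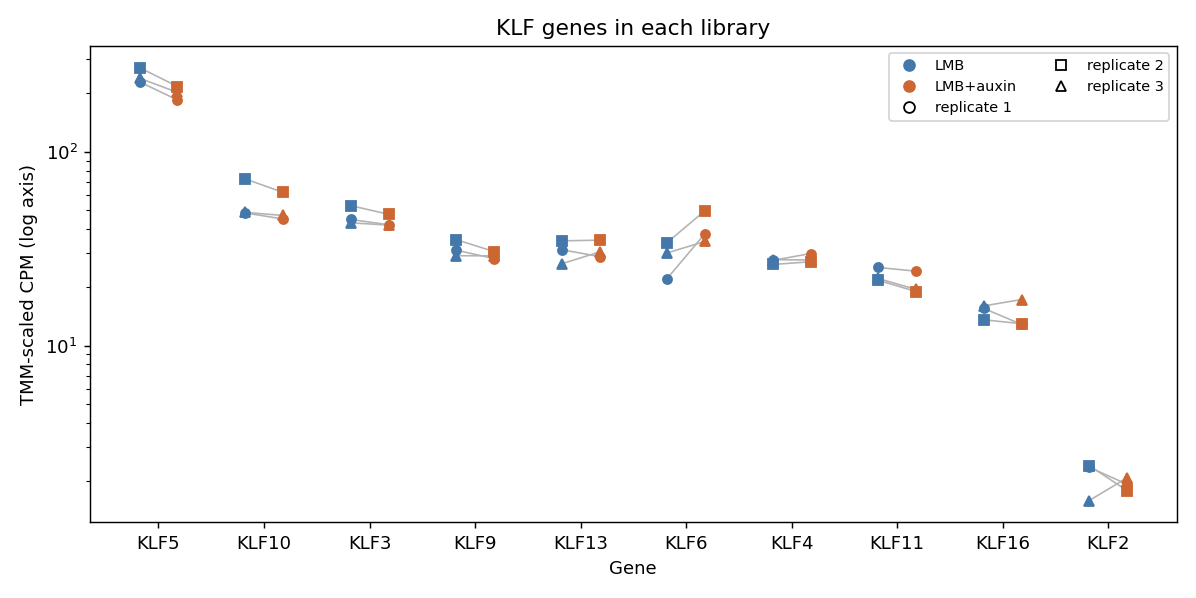
RNA abundance of the 10 KLF genes (x axis, ordered by mean in LMB) in each of the 6 libraries as TMM-scaled CPM (y axis, log scale). Blue points are LMB and orange points LMB+auxin, the shape gives the replicate number and grey lines join libraries of the same number. KLF5 is lower and KLF6 higher with auxin in all 3 pairs, and the other 8 genes overlap between groups.

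Among the other genes with activating domains, KLF4 was nearly level and KLF2 was low in all libraries. KLF4 (ENSG00000136826), known for growth arrest and for its part in reprogramming cells to pluripotency, was at 27.5, 26.2 and 27.8 CPM in LMB and at 29.9, 27.1 and 27.7 CPM in LMB+auxin. Its log2 fold change was 0.05 with a 95% interval from -0.12 to 0.23, the narrowest interval of the 10 genes. KLF2 (ENSG00000127528), known from endothelium and resting T cells, was at 1.59 to 2.40 CPM in LMB and 1.78 to 2.08 CPM in LMB+auxin. It was lower with auxin in pairs 1 and 2 and higher in pair 3. At a mean count of 62.5 its log2 fold change of -0.12 had an interval from -0.57 to 0.33, the widest of the 10 genes.

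KLF3 (ENSG00000109787), the CtBP-binding repressor, was at 44.8, 52.8 and 43.0 CPM in LMB and 42.0, 47.6 and 41.9 CPM in LMB+auxin. The groups overlapped, although each library with auxin was below the LMB library of its own number. Its log2 fold change was -0.10 (interval -0.31 to 0.12) without the block and -0.09 (interval -0.20 to 0.02) with it. Of its exonic bases, 3.91% are shared with KLF3-AS1 on the opposite strand, which had a mean count of 69.0 beside 1408 for KLF3.

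The SIN3A-binding repressors lay between -0.14 and 0.03 on the log2 scale. KLF10 (ENSG00000155090), first described as a gene induced early by TGF-beta, was at 48.4, 72.5 and 48.7 CPM in LMB and 45.0, 61.8 and 46.9 CPM in LMB+auxin. Replicate 2 was the highest in both groups, and each library with auxin was below its partner. Its log2 fold change was -0.14 (interval -0.54 to 0.26) without the block and -0.13 (interval -0.24 to -0.02) with it, and the edgeR adjusted p was 0.957 and 0.151.

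KLF11 (ENSG00000172059), also induced early by TGF-beta, was at 25.3, 21.7 and 22.2 CPM in LMB and 24.2, 19.0 and 19.5 CPM in LMB+auxin. The groups overlapped through replicate 1, the highest in each. The log2 fold change was -0.14 (interval -0.40 to 0.11) without the block and -0.15 (interval -0.28 to -0.01) with it, with an edgeR adjusted p of 0.196 in the block fit. KLF11 shares 9.06% of its exonic bases with ENSG00000271787 on the opposite strand, at a mean count of 62.5 beside 683 for KLF11.

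KLF9 (ENSG00000119138), a gene known to respond to glucocorticoid and thyroid hormone, was at 29.1 to 35.2 CPM in LMB and 28.1 to 30.6 CPM in LMB+auxin, with a log2 fold change of -0.12 (interval -0.32 to 0.08). It was lower with auxin in pairs 1 and 2, by 0.14 and 0.20, and level in pair 3 at -0.0015. KLF13 (ENSG00000169926), known as an activator of the chemokine gene CCL5 in T lymphocytes, was at 26.4 to 34.7 CPM in LMB and 28.8 to 35.0 CPM in LMB+auxin, with a log2 fold change of 0.03 (interval -0.23 to 0.29). KLF16 (ENSG00000129911) was at 13.6 to 16.0 CPM in LMB and 12.9 to 17.3 CPM in LMB+auxin, with a log2 fold change of -0.07 (interval -0.36 to 0.23). KLF13 and KLF16 moved in different directions in different pairs. KLF16 shares 16.3% of its exonic bases with ENSG00000267125 on the opposite strand, whose mean count was 141 beside 460 for KLF16.

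**Figure D2:**
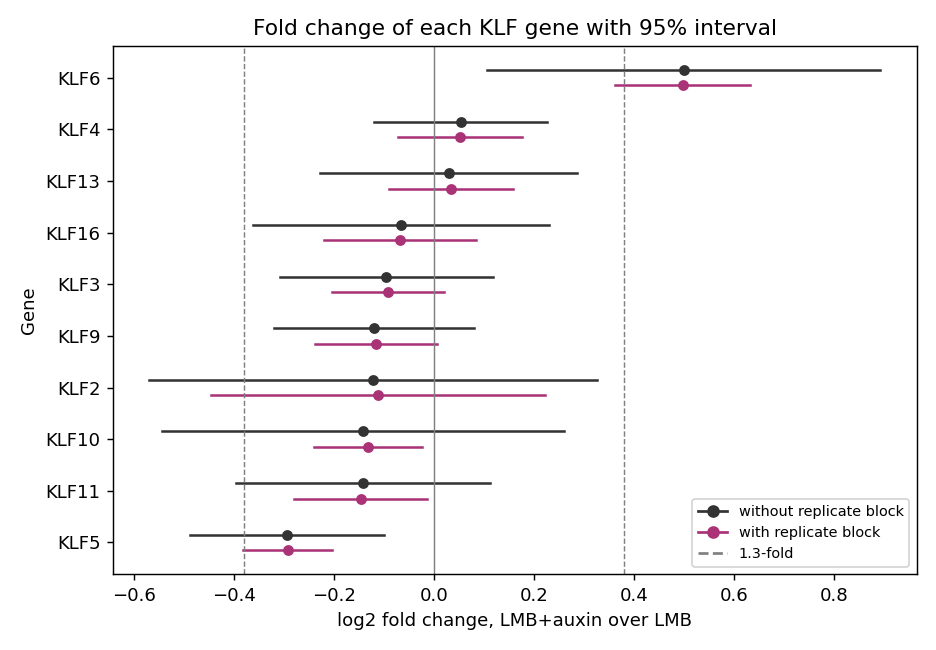
Log2 fold change of each KLF gene, LMB+auxin over LMB (x axis), with 95% intervals from the edgeR fit without (black) and with (purple) the replicate block. Dashed lines mark a 1.3-fold change either way. The point of KLF6 lies beyond the right line in both fits, and that of KLF5 lies between the lines at -0.29.

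To be called, a gene had to change by at least 1.3-fold and to have a p, adjusted by the Benjamini-Hochberg method, under 0.05. Without the block, edgeR called 0 of the 10 KLF genes, beside 0.00589% of all tested genes (1 of 16974), and DESeq2 and limma-voom also called 0. At an unadjusted p under 0.05 there were 2 of the 10, KLF5 and KLF6, beside 4.37% of all tested genes. The block was kept as the second fit because libraries of the same number deviated together from their group means. With it, edgeR called 1 of the 10 higher (KLF6) and 0 lower, beside 0.3% of tested genes called higher, 0.884% called lower and 1.18% called either way. Without the fold change limit, 2 of the 10 passed the adjusted p, beside 4.36% of tested genes, with KLF6 among the 1.11% higher and KLF5 among the 3.25% lower. At an unadjusted p under 0.05 the block fit held 4 of the 10, KLF5, KLF6, KLF10 and KLF11, beside 19.9% of all tested genes.

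As a group the 10 genes did not move one way. Log2 fold changes were negative for 7 and positive for 3, and their median was -0.11, beside -0.0027 over all tested genes. The median pair difference of the 10 genes was -0.11, -0.17 and -0.0036 in the pairs 1, 2 and 3. KLF3, KLF5, KLF9, KLF10 and KLF11 were lower with auxin in 3 of 3 pairs, 5 of 10 beside 20.5% of all tested genes, where KLF9 counts through a pair 3 that was level (-0.0015), and 1 of 10, KLF6, was higher in 3 of 3 pairs, beside 21.4%. LMB libraries lay below those with auxin without overlap for 1 of 10 genes, beside 4.9% of tested genes, and above them for 1 of 10, beside 6.63%. The median was -0.00011 when LMB replicate 2 alone was left out, and KLF3 (0.0064) and KLF10 (0.086) then changed sign. KLF2, KLF3, KLF5, KLF9 and KLF10 had their highest value in that library. With both libraries of replicate 2 left out of the block fit the median was -0.060.

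For most of the 10 genes the spread between replicate numbers was larger than the difference between groups. This was not particular to the KLF genes. Over all tested genes the median range of the replicate means was 0.211 on the log2 scale, and the median group difference was 0.0825. A range over all replicate numbers and a difference between groups are not like measures, so which is larger is a description and not a test. The mean of the 2 libraries of each number ranged over 0.52 on the log2 scale for KLF10, at the 90.6th percentile of tested genes, while its groups differed by 0.13. For KLF6 this range and the group difference were both 0.50, at the 89.8 and 99.1 percentile of tested genes. For KLF5 the group difference (0.29) exceeded the range (0.24). KLF4 had the smallest range between replicate numbers of the 10 genes (0.11), and KLF13 the smallest group difference (0.03).

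**Figure D3:**
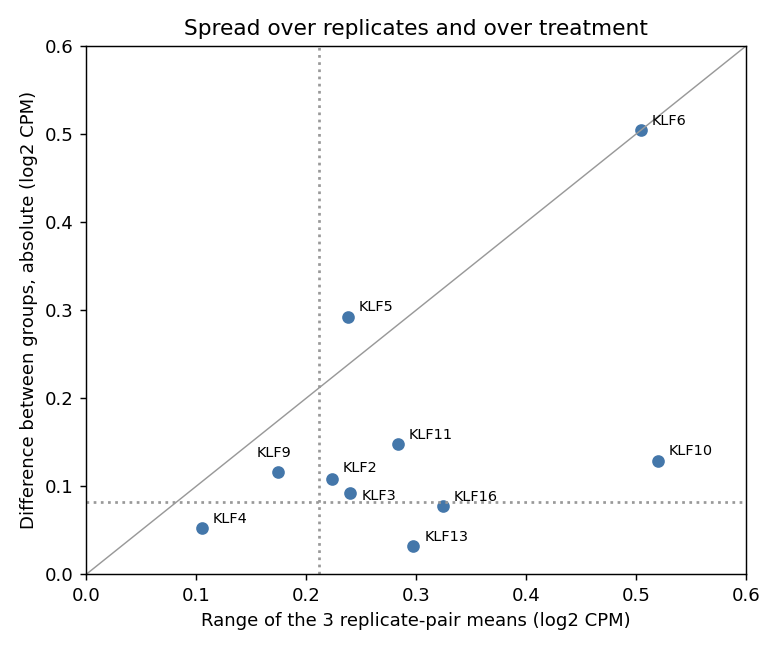
For each KLF gene, the range of the means of the 3 replicate pairs (x axis, log2 CPM) against the absolute difference between the LMB and LMB+auxin groups (y axis, log2 CPM). The grey line marks equal values and dotted lines the medians of all tested genes, 0.211 and 0.0825. KLF5 lies above the line, KLF6 on it and the other 8 genes below it.

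Across the 6 libraries, KLF3, KLF9 and KLF10 varied alike, with Pearson correlations of log2 CPM of 0.97 between KLF3 and KLF10, 0.95 between KLF3 and KLF9 and 0.88 between KLF9 and KLF10. KLF4 went against these 3 and KLF5, with correlations from -0.84 to -0.78. KLF6 had correlations between -0.71 (with KLF11) and 0.37 (with KLF13). These values describe 6 libraries that share treatment and replicate number. The tested genes most like the mean of the 10 over the 6 libraries were SNORA7A (Pearson correlation 0.98), ITPKB (0.98) and VIL1 (0.97), out of 10489 genes with a mean of at least 10 CPM outside the KLF and Sp families. Correlations of over 0.95 were found for 15 of these genes.

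Per kilobase of exon, KLF5 was far above the others at 61.0 CPM per kb over the 6 libraries, at the 95.5th percentile of 12663 tested coding genes. KLF10 followed at 14.1 CPM per kb and its libraries (11.8 to 19.0) overlapped neither those of KLF5 (50.3 to 74.0) nor those of KLF4 (7.16 to 8.15), the next in order at 7.56. KLF3 (6.70), KLF9 (5.87), KLF6 (5.66), KLF16 (4.96) and KLF11 (4.79) came next, and each overlapped with the gene above it, so their order was not resolved. KLF13 (3.30) and KLF2 (0.717, at the 10.6th percentile) were lower, with no overlap with the gene above them. KLF6 was at 4.68 ± 0.981 CPM per kb without auxin and 6.63 ± 1.3 CPM per kb with it (SD, n = 3 each), which placed it below KLF16 and KLF11 without auxin and just above KLF3 with it, within the spread of these genes.

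**Figure D4:**
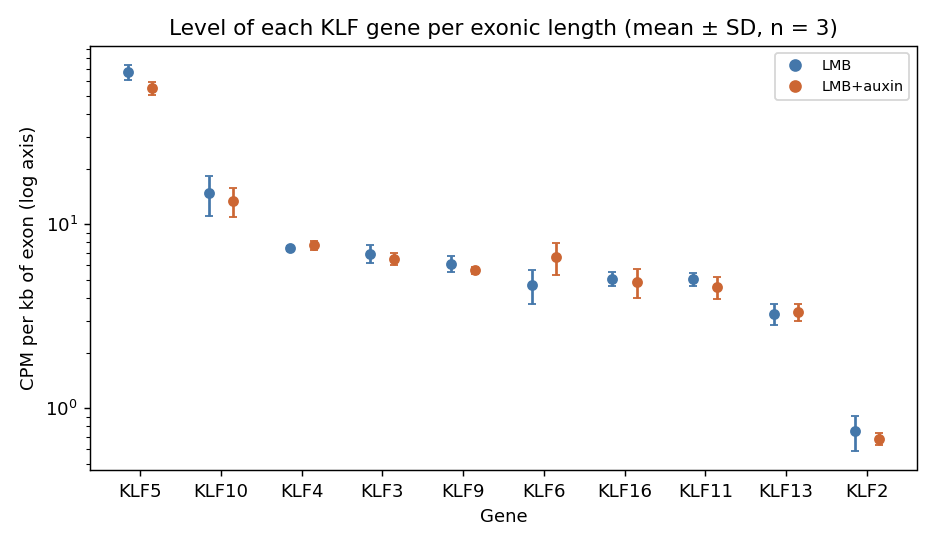
Level of each KLF gene as CPM per kb of exon (y axis, log scale), mean ± SD of 3 libraries in LMB (blue) and LMB+auxin (orange). Genes are ordered by the mean of all 6 libraries, from KLF5 at 61.0 to KLF2 at 0.717.

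As genes, the 10 were short in span for the most part and all had few exons. The median span was 11584.5 bases, beside 33467 over tested coding genes, and 8 of 10 lay below that median. The exceptions were KLF13, which spans 108831 bases with an exon count of 2, and KLF3 with 37321. The exon count of the canonical transcript was 2 to 6, beside a median of 9. The region after the stop codon was long, with a median of 2194.5 bases beside 1272, and 9 of 10 genes were above that median. The pentamer AUUUA, the core of AU-rich decay elements, occurred at a median of 2.23 per kb of this region, beside 1.63 over tested coding genes. It was above that median in 8 of 10 genes and highest in KLF5 (3.03 per kb), while KLF13 (0.893) and KLF16 (0.971) were below it. No decay rate was measured in these libraries.

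Of the 8 other KLF genes in the table, KLF7, KLF8, KLF12 and KLF15 were tested. None was called by edgeR in either fit, and none had an unadjusted p under 0.05. KLF8, a CtBP-binding repressor, had a log2 fold change of -0.24 (standard error 0.28) at a mean of 1.15 CPM in LMB. KLF12, of the same subgroup, was at 0.10 (standard error 0.08), with 15.1 to 15.7 CPM in LMB and 16.4 to 16.7 CPM in LMB+auxin. Its libraries did not overlap, 1 of 4 genes with auxin above, beside 4.9% of tested genes. The 10 KLF pseudogenes in the table had 26 counts in all over the 6 libraries, so few reads were assigned to such copies.

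Of the 9 Sp genes, 6 were tested. None was called by edgeR in either fit. At an unadjusted p under 0.05, 1 passed without the block and 3 with it, beside 4.37% and 19.9% of all tested genes. A negative log2 fold change was found for 5 of 6, with a median of -0.10, beside -0.0027 over all tested genes. SP4 was at 31.5, 33.8 and 31.9 CPM in LMB and 26.8, 26.0 and 27.7 CPM in LMB+auxin. Its libraries did not overlap, 1 of 6 Sp genes with auxin below, beside 6.63% of tested genes. Its log2 fold change of -0.27 was below the limit, with an edgeR adjusted p of 0.954, or 0.00279 in the block fit (0.160 by DESeq2). SP3 also passed the adjusted p by edgeR with the block (0.0113) at -0.18, but not by DESeq2 with the block (0.10). SP5, a target of Wnt signalling, was at -0.21 (adjusted p 0.213 with the block).

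Proteins that act with the KLF factors, the 12 corepressors, coactivators and ubiquitin ligases of the list, were all tested. None was called or passed an adjusted p by edgeR in either fit, and the median log2 fold change was 0.03. At an unadjusted p under 0.05, 0 passed without the block and 3 with it, beside 4.37% and 19.9% of all tested genes. The values farthest from 0 were 0.14 for HDAC2, a histone deacetylase of SIN3 complexes, and -0.13 for CREBBP, a histone acetyltransferase. SIN3A (0.03), CTBP1 (-0.04) and CTBP2 (0.05), the partners of the repressors above, lay between these.

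Of 21 genes given as KLF targets in textbooks, 16 were tested, with a median log2 fold change of 0.01, 8 higher and 8 lower. None was called by edgeR in either fit. At an unadjusted p under 0.05, 0 passed without the block and 3 with it, beside 4.37% and 19.9% of all tested genes. DESeq2 and limma-voom called 0 of these targets, the cofactors, the Sp genes and the other KLF genes. With the block, CDKN1A, the cell cycle inhibitor p21, was at -0.35 (adjusted p 0.0158 by edgeR and 0.356 by DESeq2), below the fold change limit. CDKN1A differed more between replicate numbers than between groups, at 6.03, 13.8 and 7.48 CPM in LMB and 4.09, 11.4 and 6.08 CPM in LMB+auxin. CDKN1C, a related inhibitor, was at -0.19 (adjusted p 0.386 with the block). CCND1 (0.05), MYC (-0.07) and BIRC5 (0.05) lay near 0.

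The immediate-early genes resemble the KLF genes in fast induction and decay, and 15 of 17 were tested. They also moved in both directions, from -0.38 to 0.61 with a median log2 fold change of -0.04. None was called without the block (3 at an unadjusted p under 0.05, beside 4.37% of all tested genes). With it, edgeR called 2 higher, FOS (0.58) and IER3 (0.52), beside 0.3% of tested genes, and 1 lower, IER5 (-0.38), beside 0.884%. DESeq2 with the block called 1 of these, IER3, beside 31 of all 16974 tested genes. The share past the edgeR adjusted p with the block was 8 of 15, beside 2 of 10 for the KLF genes and 4.36% of all tested genes. The differences between these shares were not tested. IER3 was at 113.9, 265.2 and 131.3 CPM in LMB and 157.2, 362.1 and 206.9 CPM in LMB+auxin, with replicate 2 the highest in both groups, as for KLF6, and with groups that overlapped.

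The aryl hydrocarbon receptor can be activated by indole compounds, the class to which auxin belongs. Of 5 genes known to respond to it, 4 were higher with auxin in 3 of 3 pairs, beside 21.4% of all tested genes. edgeR called 0 of the 5 without the block (3 at an unadjusted p under 0.05, beside 4.37% of all tested genes). DESeq2 without the block called 2, CYP1A1 and TIPARP, beside 11 of all 16974 tested genes. TIPARP, a feedback inhibitor of the receptor, had a log2 fold change of 0.61. With the block, edgeR called TIPARP alone of the 5, beside 0.3% of tested genes called higher. Its libraries were at 145.8 to 180.3 CPM without auxin and at 234.9 to 268.9 CPM with it. CYP1A1, the best known target enzyme of the receptor, had a log2 fold change of 1.16. Without the block its adjusted p was 8.0e-07 by DESeq2 and 0.644 by edgeR, and edgeR with the block gave 0.181. The part of this response in the values of KLF6 and KLF5 was not tested.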

How the data were processed

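RNA was measured in 6 libraries of AID-NeonGreen-TPR cells (3 LMB and 3 LMB+auxin), grouped by sample title. The authors removed ribosomal RNA, made stranded paired-end libraries, aligned reads with STAR to GRCh38 and counted them per Ensembl gene with featureCounts. Per the processing notes the versions were CASAVA 1.8.2, STAR 2.6.1c and featureCounts 1.5.2, and the study's methods give other versions of the last 2 tools. The deposited values are raw counts, and no replicates were pooled. The strand setting of counting is not given in the sources used here, so values of overlapping genes are uncertain. The titles state 2 h where the treatment label states 3 h of Leptomycin B in all.

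Symbols, coordinates and lengths came from GENCODE 44 (GRCh38), which held 56948 of the identifiers. Genes with CPM above 1 in at least 3 libraries were tested over the whole table in edgeR 4.0.16 (quasi-likelihood test, TMM scaling), in R 4.3.3, without a covariate. The alternatives were a replicate block, DESeq2 1.42.0, limma-voom (limma 3.58.1), other scalings and filters, and leaving out libraries. The script was tested on simulated counts, with changes larger than those of KLF6 and KLF5 and no difference between replicate numbers. That test therefore does not show how the block fit behaves with paired libraries. CPM per kb used the union of exons, and log2 CPM for correlations a prior count of 2.

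The study calls the replicates independent biological replicates. Libraries of the same number in the 2 groups deviated together from their group means (correlations 0.531, 0.691 and 0.273 over 16974 genes for numbers 1, 2 and 3, all over 0.1), so the numbers were taken to pair the samples. The pairing comes from these values and not from a label. The KLF members and all gene lists were chosen with earlier results of these data known. Named genes were all members and, of each other list, the genes called in either fit or else the 2 with the largest change in the block fit. SP3, CYP1A1, SIN3A, CTBP1, CTBP2, CCND1, MYC and BIRC5 were added after their values were seen. A result for 1 gene of the target list is not reported here.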

Additional observations from a re-analysis of the deposited data

How the results depend on the processing

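The count of genes called was 1 without the block. It was 0 under library size alone and glmTreat (737 and 60 genes at an unadjusted p under 0.05), 11 by DESeq2, 39 without a filter on low counts and 0 to 5 when 1 library was left out. With the replicate block it was 201, with RLE size factors added 197, with library size alone 254, by DESeq2 with the block 31, and 141, 160 and 137 without pair 1, 2 and 3. The count of KLF genes called was 0 and became 1, KLF6, in the edgeR replicate block under all 3 scalings and without any 1 pair, and without a filter on low counts (adjusted p 0.00235). The cause of the last was not tested. Over all 22 alternatives the log2 fold change of KLF6 ran from 0.33 to 0.66, with adjusted p from 2.4e-13 to 1, and that of KLF5 from -0.35 to -0.21. The median over the KLF genes ran from -0.16 to -0.00011, the latter without LMB replicate 2. Of 219 single values, 9 changed sign, all when libraries were left out. They were KLF3 (0.0064) and KLF10 (0.086) without LMB replicate 2, KLF13 (-0.071) without LMB replicate 3, KLF16 (0.0078) without LMB+auxin replicate 1, and KLF13 (-0.054) and KLF16 (0.0042) without LMB+auxin replicate 2. With the block they were KLF16 (0.032) without pair 1, KLF2 (0.053) without pair 2 and KLF13 (-0.046) without pair 3. Left-out libraries took KLF2 to -0.35 (block without pair 3), KLF11 to -0.26, KLF10 to -0.30, KLF13 to 0.13 and KLF16 to -0.22 at their farthest. The block changed no other call of a KLF gene. The FPKM filter left KLF2 untested. With 3 libraries a group, precision was lowest for KLF2, which had the lowest counts.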

Other observations

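SP8, an Sp gene below the filter on low values, had 12, 16 and 24 counts in LMB replicates 1, 2 and 3. It had 3, 8 and 6 counts in LMB+auxin replicates 1, 2 and 3, without overlap between the groups. Of the genes that were tested, 6.63% were lower with auxin without overlap. SP8 was picked after its values were seen and has no test here.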
